A study of Mus musculus with 9 samples.

Results

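Arteries carry blood under high flow, and their endothelium differs from that of capillaries and veins in its junctions, matrix and signalling genes. Arterial endothelial cells are coupled by gap junctions of the connexins encoded by Gja4 and Gja5. In large vessels they also make matrix proteins, such as the fibulins and matrix Gla protein, and the chemokine Cxcl12, which signals through the receptor Cxcr4. Most endothelial cells of the lung are capillary cells, so large-vessel genes report on a minority of the cells in a preparation. In bulk RNA, fewer cells of a type and less RNA per cell cannot be told apart.

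The 10 genes described here were taken by name from a table of 9277 genes: Gja4, Gja5, Bmx, Fbln5, Fbln2, Cxcl12, Cxcr4, Mgp, Stmn2 and Tm4sf1. All 10 were in the table. RNA was sequenced from lung endothelial cells of mice with wild-type Tie1 (Tie1-WT, n = 4 libraries) and of mice whose Tie1, an endothelial receptor, resists cleavage by proteases (Tie1-CR, n = 5 libraries). PBS stands in the name of each of the 9 libraries, so both groups share it. The labels used here do not state strain, age, the gate or the number of mice per library. The comparison asks how these transcripts differ when Tie1 cannot be cleaved. P-values measure the spread between these libraries, which may in part be technical.

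From 38208696 to 54408116 reads were counted per library. The fewest reads behind any member's value were 517, for Cxcr4 in Tie1-WT replicate 3, a counting error of 4.4%. The most reads were 44820, for Tm4sf1 in Tie1-CR replicate 1. These errors cover counting alone and take reads as independent molecules. Values are CPM (reads scaled to a common library total), which are not corrected for gene length, and log2 differences are on the log2(CPM + 1) scale. Every gene in the table reaches at least 10 CPM in some library. Genes said to be not in the table have no value here, but may have been counted at lower levels. Below, measured means present in the table. Of the 10 pan-endothelial markers, 10 were measured, with a summed level of 16365 to 18140 CPM in Tie1-WT and 17948 to 18440 CPM in Tie1-CR. The 6 general capillary markers summed to 11479 to 13770 CPM and 12762 to 13570 CPM.

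None of the 10 genes passed the test between the genotypes (limma, Benjamini-Hochberg adjusted p below 0.05 over all 9277 genes) against 4.05% of all genes, 1.28% higher and 2.77% lower. At an unadjusted p below 0.05 there were 2 of 10, the connexin genes Gja4 and Gja5, both higher in Tie1-CR. Over all genes 22.3% passed at that level in either direction, and 8.27% were higher in Tie1-CR. For 9 of the 10 the log2 difference lay above 0, with a median of 0.13, while 41.5% of all genes lay above 0 and their median was -0.03. The members were not chosen blind to these results, so this direction is given as a description. Of the 10 pan-endothelial markers, 8 lay above 0 too, with a median of 0.07 log2. In none of the 10 members did the libraries of the genotypes separate without overlap, which 10.5% of all genes did, 3.74% with Tie1-CR higher.

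**Figure D1:**
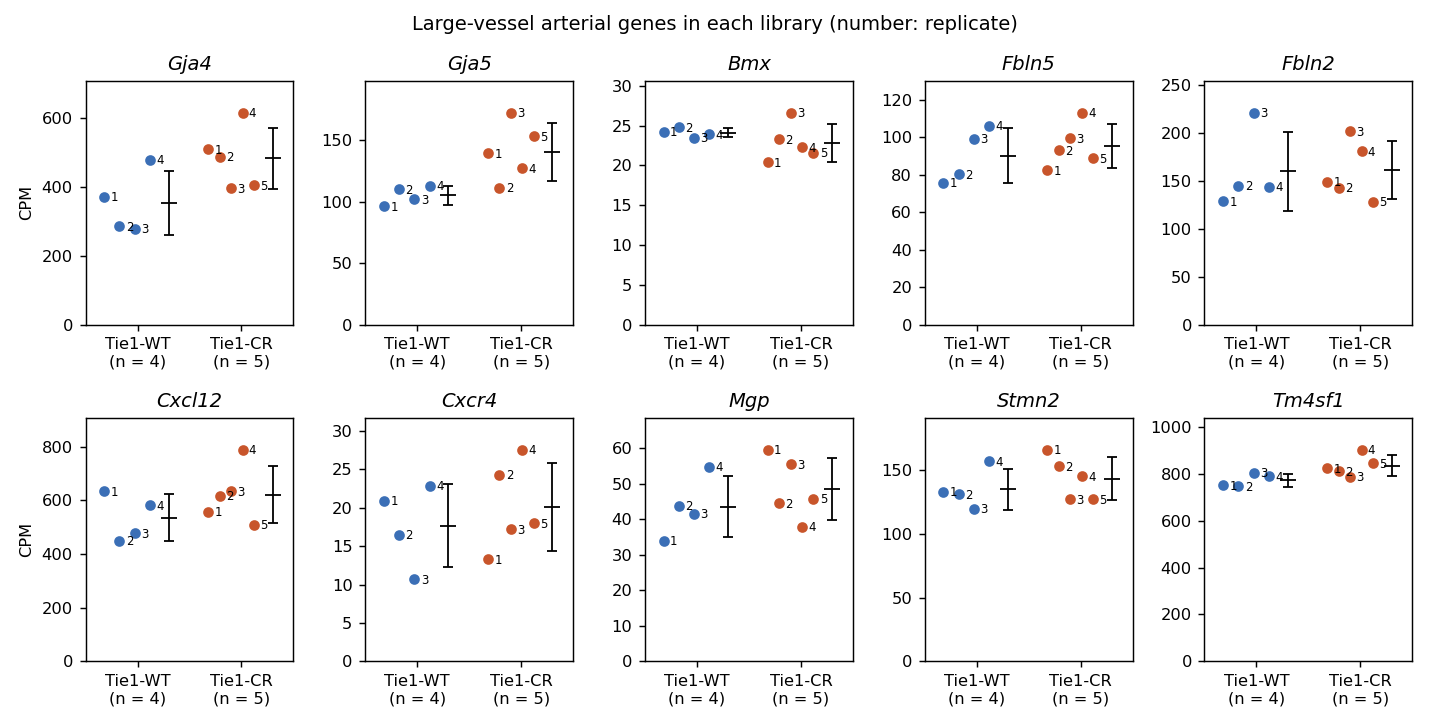
Level in CPM of each of the 10 genes (1 panel a gene, vertical axis from 0) in the 4 Tie1-WT and 5 Tie1-CR libraries. Points are libraries with their replicate number, and the bar beside them is the mean with its SD. The genotypes overlap in every panel, and Gja4 and Gja5 show the largest relative shift, from means of 353 and 105 CPM to 482 and 140.4 CPM.

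Gja4 encodes connexin 37, a gap junction subunit of arterial endothelium. It lies on chromosome 4, from 127311421 to 127314039 on the minus strand (GRCm38), with 2 exons. In Tie1-WT replicates 1 to 4 it measured 371, 285, 278 and 478 CPM, and in Tie1-CR replicates 1 to 5 it measured 508, 487, 395, 614 and 404 CPM. Every Tie1-CR library lay above the Tie1-WT mean, but Tie1-WT replicate 4 lay above Tie1-CR replicates 3 and 5. The means were 353 ± 93.6 CPM (SD, n = 4) and 482 ± 89.0 CPM (SD, n = 5). This gave a log2 difference of 0.46 (SE 0.17; 95% interval 0.10 to 0.83; limma adjusted p = 0.13), or 1.38-fold. Without Tie1-WT replicate 4 the difference was 0.62 with an adjusted p of 0.0442 in limma, and without each other library in turn it did not pass.

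Gja5 encodes connexin 40, the partner connexin of the same cells. It lies on chromosome 3, from 96904693 to 97077416 on the plus strand (GRCm38). Its values were 96.2, 110.1, 102 and 113 CPM in Tie1-WT replicates 1 to 4, and 139, 111, 172, 127 and 153 CPM in Tie1-CR replicates 1 to 5. Of the 5 Tie1-CR libraries, 4 lay above all Tie1-WT libraries, and replicate 2 lay inside their range. The means were 105 ± 7.52 CPM (SD, n = 4) and 140.4 ± 23.4 CPM (SD, n = 5). Gja5 differed by 0.40 log2 (SE 0.11; 95% interval 0.16 to 0.64; limma adjusted p = 0.0633), or 1.32-fold, and its p ranked at 491 among 9277 genes. Without Tie1-CR replicate 2 the difference was 0.48 and the adjusted p 0.0193 in limma. Without each other library in turn Gja5 did not pass (limma adjusted p from 0.0741 to 0.18). The annotated exons of Gja5 share 165 bases with Gpr89 on the opposite strand, and strand use in counting is not given. Gpr89 measured 29.0 ± 1.28 CPM (SD, n = 4) and 30.0 ± 0.597 CPM (SD, n = 5), with a log2 difference of 0.05.

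The 250 bases before the RefSeq starts of the connexin genes are shown because these members had the largest log2 differences. They were chosen after the values were seen, since no member passed the test. The sequences are from RefSeq on GRCm38.p6, and 8 of the 10 members had an entry. The Gja4 stretch ends at the annotated start given above. The Gja5 stretch lies inside the annotated span of the gene, before the start of its RefSeq entry and not before the outermost annotated start. Capitals mark GGGTGG, the reverse complement of CCACCC, a sequence bound by Kruppel-like factors, which respond to flow in endothelium.
Gja4 (chr4:127314040-127314289, minus strand): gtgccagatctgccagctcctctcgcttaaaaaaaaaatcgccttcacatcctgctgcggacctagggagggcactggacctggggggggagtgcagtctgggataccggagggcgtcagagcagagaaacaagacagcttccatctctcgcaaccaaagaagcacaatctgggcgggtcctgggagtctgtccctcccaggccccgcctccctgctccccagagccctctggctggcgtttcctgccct
Gja5 (chr3:97032152-97032401, plus strand): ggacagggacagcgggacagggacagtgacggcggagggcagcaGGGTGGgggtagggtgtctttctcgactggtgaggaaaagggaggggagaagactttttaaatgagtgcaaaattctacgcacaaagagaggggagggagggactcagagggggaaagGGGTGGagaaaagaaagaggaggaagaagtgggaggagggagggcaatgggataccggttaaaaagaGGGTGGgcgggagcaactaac

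Both strands were searched for 7 sequences, and the share of all 32851 promoter stretches of this length that hold each is given. The Kruppel-like sequence CCACCC was in 28.1% of them and the TATA box TATAAA in 12.4%. The RBPJ sequence of the Notch effector, GTGGGAA, was in 5.42%. For SOX factors AACAAT was in 9.42%. For ETS factors CCGGAA was in 12.0%. For FOX factors GTAAACA was in 3.17%, and the E-box CACGTG was in 6.02%. The Gja5 stretch held 3 matches to the Kruppel-like sequence, with first bases at -206, -88 and -21 relative to the start, and no other match. The Gja4 stretch held none of the 7. Among the other members with an entry, Fbln2, Cxcl12 and 1 of the 2 Fbln5 stretches held the Kruppel-like sequence and Cxcr4 the TATA box. A match is a description of letters and not of binding.

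The chemokine gene Cxcl12 and its receptor gene Cxcr4 form a ligand and receptor pair with roles in arterial growth. Cxcl12, on chromosome 6 (117168535 to 117181367), measured 633, 449, 477 and 582 CPM in Tie1-WT replicates 1 to 4. In Tie1-CR replicates 1 to 5 it measured 558, 616, 633, 789 and 509 CPM. Tie1-CR replicate 4 was the highest library, and the rest of the groups overlapped. Means of 535 ± 86.7 CPM (SD, n = 4) in Tie1-WT and 621 ± 106 CPM (SD, n = 5) in Tie1-CR gave a log2 difference of 0.21 (95% interval -0.07 to 0.50; limma adjusted p = 0.361).

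Cxcr4, on chromosome 1 (128588199 to 128592293), was among the least abundant members, at 20.9, 16.5, 10.7 and 22.9 CPM in Tie1-WT replicates 1 to 4. In Tie1-CR replicates 1 to 5 it measured 13.3, 24.3, 17.2, 27.6 and 18.0 CPM. Both genotypes spanned about the same range. Cxcr4 differed by 0.18 log2 (95% interval -0.32 to 0.68; limma adjusted p = 0.678), and it was -0.03 without Tie1-WT replicate 3, the lowest library. Its spread was wide, with a residual SD of 0.43 on the log2 scale, larger than that of 98.6% of genes. Cxcr4 is also made by leukocytes. The pan-leukocyte marker Ptprc was not in the table, and the 2 of 10 leukocyte markers measured, Lyz2 and Cd68, summed to 30.6 to 76.9 CPM in Tie1-WT and 60.2 to 118 CPM in Tie1-CR. These markers went opposite ways. Cd68, a macrophage gene, fell by 0.90 log2 (10.7 ± 1.30 CPM, SD, n = 4, and 5.30 ± 1.05 CPM, SD, n = 5; limma adjusted p = 0.0064), with all 5 Tie1-CR libraries below all Tie1-WT libraries. Cd68 reached 10 CPM only in Tie1-WT, so its place in the table depends on the group where it is high. For this reason no conclusion is drawn from its difference or from the separation of its libraries. Lyz2, at 1.11 log2, did not pass. Their part in the Cxcr4 values was not tested.

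Fbln5 and Fbln2 encode fibulins, extracellular proteins of elastic fibres and basement membranes. Fbln2, on chromosome 6 (91212455 to 91272540), measured 129, 145, 221 and 144 CPM in Tie1-WT replicates 1 to 4. Its values in Tie1-CR replicates 1 to 5 were 149, 143, 202, 181 and 128 CPM. Tie1-WT replicate 3 was the highest of all 9 libraries, and the range of Tie1-WT nearly enclosed that of Tie1-CR. The means were close, at 159.8 ± 41.6 CPM (SD, n = 4) and 161 ± 30.1 CPM (SD, n = 5). Fbln2 differed by 0.02 log2 (95% interval -0.33 to 0.38; limma adjusted p = 0.951). Its sign turned without Tie1-WT replicate 1, 2 or 4 (-0.07, -0.01 and -0.02 log2) and without Tie1-CR replicate 3 or 4 (-0.06 and -0.03 log2).

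Fbln5, on chromosome 12 (101746565 to 101819055), is needed for the assembly of elastic fibres. It ranged from 75.6 to 106 CPM in Tie1-WT and from 82.3 to 113 CPM in Tie1-CR. Fbln5 differed by 0.08 log2 (95% interval -0.16 to 0.33; limma adjusted p = 0.685). As Tie1-CR over Tie1-WT, the intervals ran from 0.79- to 1.30-fold for Fbln2 and from 0.90- to 1.26-fold for Fbln5.

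Mgp encodes matrix Gla protein, which inhibits vessel calcification and bone morphogenetic protein (BMP) signalling. Its gene lies on chromosome 6 (136872435 to 136875823). It measured 34.0, 43.8, 41.5 and 54.8 CPM in Tie1-WT replicates 1 to 4, and 59.6, 44.5, 55.4, 37.9 and 45.7 CPM in Tie1-CR replicates 1 to 5. Tie1-WT replicate 1 was the lowest library and Tie1-CR replicate 1 the highest. Mgp differed by 0.16 log2 (95% interval -0.16 to 0.48; limma adjusted p = 0.546).

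Fibroblasts and smooth muscle also make Mgp, the fibulins and Cxcl12. Of 9 fibroblast markers, 3 were in the table (Col1a1, Col1a2 and Col3a1), and their sum ran from 15.4 to 60.3 CPM in Tie1-WT and from 10.6 to 53.6 CPM in Tie1-CR. The defining markers Pdgfra, Dcn and Lum were not in the table. Of 7 smooth muscle markers, Acta2, Myh11 and Tagln were in the table, with sums of 30.4 to 55.7 CPM and 23.7 to 70.6 CPM. Both sums overlapped between the genotypes. Within Tie1-WT, replicate 4 had the highest fibroblast sum (60.3 CPM) and the highest Mgp and Fbln5 values, while replicate 3, with the highest Fbln2 value, had a fibroblast sum of 16.7 CPM. Within Tie1-CR, replicate 1 had the lowest fibroblast sum (10.6 CPM), the highest Mgp value (59.6 CPM) and the lowest Fbln5 value (82.3 CPM). Replicate 5 of Tie1-CR had the highest fibroblast sum (53.6 CPM) and the lowest Fbln2 value (128 CPM). The part of fibroblasts and smooth muscle in the members' values was not tested. None of the 6 pericyte or 4 mesothelium markers was in the table.

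Tm4sf1 encodes a four-pass membrane protein of endothelial cells that is linked to their migration. Its gene lies on chromosome 3 (57285611 to 57301988). It measured 749.8, 746, 804 and 790.1 CPM in Tie1-WT replicates 1 to 4, and 824, 811, 788, 903 and 844 CPM in Tie1-CR replicates 1 to 5. Of the Tie1-CR libraries, 4 lay above all Tie1-WT libraries, and replicate 3 lay just below the top of the Tie1-WT range. The log2 difference was small and narrowly bounded, at 0.11 (SE 0.06; 95% interval -0.01 to 0.23; limma adjusted p = 0.264). With TMM scaling it was 0.13.

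Bmx encodes a TEC family kinase of arterial endothelium. The gene lies on chromosome X (164192842 to 164258193) and was the only member with a log2 difference below 0. It measured 24.2, 24.8, 23.5 and 23.9 CPM in Tie1-WT replicates 1 to 4, and 20.4, 23.3, 26.6, 22.3 and 21.6 CPM in Tie1-CR replicates 1 to 5. Of the Tie1-CR libraries, 4 lay below all Tie1-WT libraries and replicate 3 lay above them. The coefficient of variation was 2.27% in Tie1-WT and 10.3% in Tie1-CR, beside a counting error of 2.66% to 3.35% per library. The Tie1-WT spread was within counting error. The difference in spread between the genotypes was not tested. The log2 difference was -0.08 (95% interval -0.24 to 0.08; limma adjusted p = 0.542).

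Stmn2 encodes a stathmin, a protein that destabilises microtubules, and is also a gene of neurons. It lies on chromosome 3 (8509360 to 8561606). It ranged from 119.6 to 157 CPM in Tie1-WT and from 127 to 166 CPM in Tie1-CR, with a log2 difference of 0.08 (95% interval -0.12 to 0.29; limma adjusted p = 0.631). Of 6 neuron markers, Uchl1 alone was in the table, at 7.65 to 12.4 CPM over all libraries, while Tubb3, Snap25, Syt1, Prph and Elavl4 were not.

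**Figure D2:**
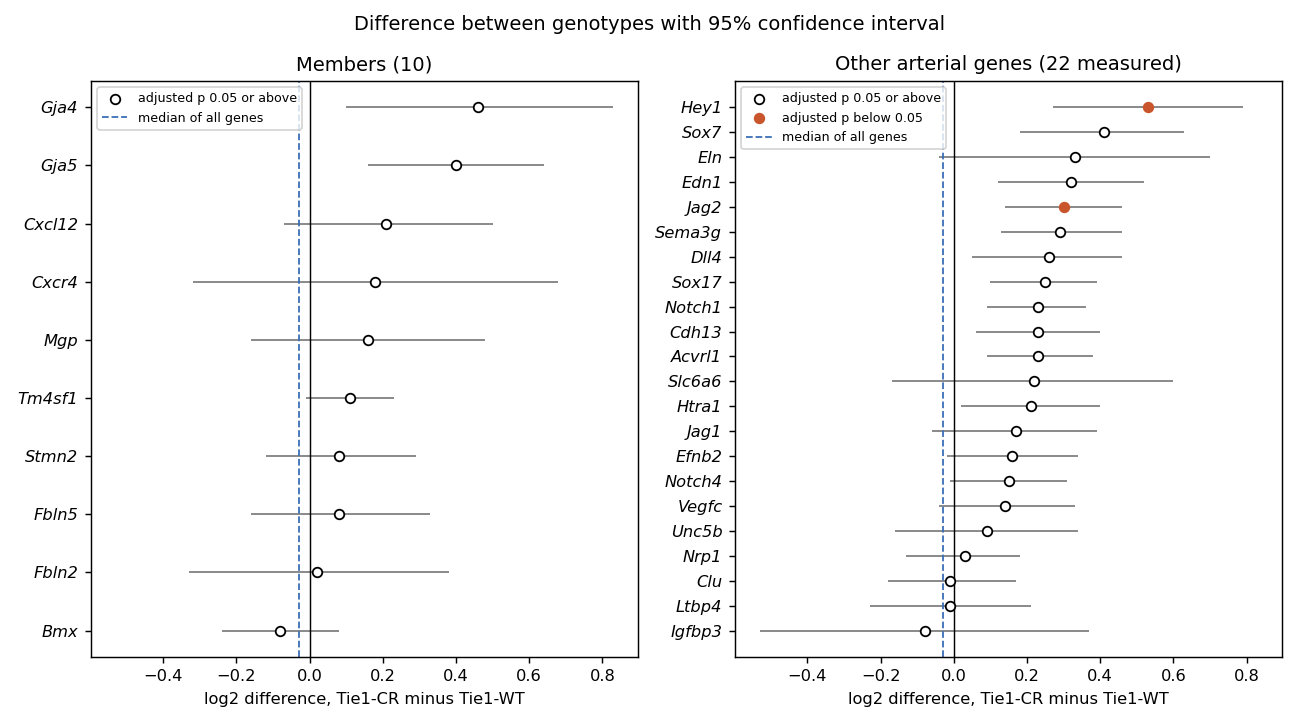
Log2 difference (Tie1-CR minus Tie1-WT, horizontal axis) with its 95% confidence interval for the 10 members (left) and 22 other arterial genes (right). Filled points have an adjusted p below 0.05, and the dashed line is the median of all genes (-0.03). No member is filled, 2 members have intervals above 0, and Hey1 and Jag2 are filled on the right.

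Other genes of the same systems gave a mixed picture. Of 22 further arterial genes measured, 19 lay above 0 with a median of 0.22 log2, and 2 rose over all genes. These were the Notch target Hey1 (0.53 log2, limma adjusted p = 0.0353) and the Notch ligand Jag2 (0.30 log2, limma adjusted p = 0.0461). Hey1 measured 348, 281, 335 and 404 CPM in Tie1-WT replicates 1 to 4 and 571, 413, 429.9, 563 and 497 CPM in Tie1-CR replicates 1 to 5, so its groups did not overlap. Both calls were lost in most fits with 1 library left out, but the differences stayed at 0.44 to 0.61 log2 for Hey1 and 0.24 to 0.33 log2 for Jag2. Over all genes, too, fewer were called higher in such fits, 6 to 110 against 119. Leaving out libraries in turn, Hey1 passed in 3 of 9 cases (Tie1-WT replicate 4, Tie1-CR replicates 2 and 3) and Jag2 in 1 (Tie1-CR replicate 5). The adjusted p reached 0.105 and 0.109 in the other cases (limma). The call of Jag2 also ended with the replicate number as a block and with library weights (limma adjusted p = 0.0578 and 0.0514). Whether the replicate numbers pair the libraries is not known, so no conclusion is drawn from the block. At an unadjusted p below 0.05 the list held 11 higher genes and 0 lower, where 8.27% of all genes were higher and 14.0% lower.

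Among gap junction genes other than the members, 2 of 12 were measured and 0 passed (limma; 1 higher at an unadjusted p below 0.05). Gjc1, which encodes connexin 45, measured 56.5 ± 6.12 CPM (SD, n = 4) and 68.5 ± 5.57 CPM (SD, n = 5), at 0.28 log2 (limma adjusted p = 0.0731). Without Tie1-WT replicate 4 its adjusted p was 0.0292 in limma. Gja1, which encodes connexin 43, measured 24.5 ± 4.78 and 21.1 ± 4.83 CPM, at -0.22 log2 (limma adjusted p = 0.442).

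Of 21 elastic fibre genes other than the members, 9 were measured and 0 passed (limma; 0 at an unadjusted p below 0.05), with a median of 0.02 log2. Eln and Ltbp4 stand in this list and in the arterial list. Ltbp4, which binds latent TGF-beta and elastic fibres, measured 309.8 ± 28.8 CPM (SD, n = 4) and 309.8 ± 43.3 CPM (SD, n = 5). Mfap2, a microfibril gene, differed by 0.23 log2 (limma adjusted p = 0.252). Genes listed around Cxcl12 and Cxcr4 included the scavenger receptor gene Ackr3, Dpp4, and genes for G proteins, kinases and arrestins. Of the 14 listed, 11 were measured, of which 2 lay above 0 and 0 passed (limma; 0 at an unadjusted p below 0.05). Their median was -0.02 log2, with a range from -0.10 to 0.09, and the most abundant, the G protein genes Gnai2 and Gnb1, differed by -0.02 and -0.09 log2 (Gnai2 0.01 with TMM scaling).

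Of 19 BMP and Gla protein genes that bear on Mgp, 16 were measured, 12 lay above 0 and 1 rose over all genes, with a median of 0.16 log2. At an unadjusted p below 0.05 there were 6 higher and 1 lower. Acvrl1, a BMP receptor gene, stands in this list and in the arterial list. The riser was Smad7, an inhibitor of TGF-beta and BMP signalling that these signals induce. It measured 563, 560.4, 514 and 571 CPM in Tie1-WT replicates 1 to 4 and 754, 681, 694, 622 and 755 CPM in Tie1-CR replicates 1 to 5, without overlap. The log2 difference was 0.34 (95% interval 0.20 to 0.49; limma adjusted p = 0.0205). The call ended without Tie1-WT replicate 1, 2 or 3 (adjusted p = 0.0675, 0.056 and 0.0565 in limma). With the replicate number as a block the limma adjusted p was 0.0802, but whether these numbers pair the libraries is not known. The only close relative of Bmx, Stmn2 or Tm4sf1 in the table was Stmn1 of 11 genes listed, at -0.13 log2 (limma adjusted p = 0.45).

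Markers of other lung endothelial classes had medians of -0.02 log2 for 6 general capillary genes, 0.02 for 6 aerocyte genes (alveolar capillary cells), 0.01 for 7 venous genes and 0.21 for 3 lymphatic genes. The venous markers summed to 4346 to 4799 CPM in Tie1-WT and 4534 to 6414 CPM in Tie1-CR, with every Tie1-CR library but replicate 1 above all Tie1-WT libraries. At an unadjusted p below 0.05 they held 3 higher and 1 lower. None of the capillary, aerocyte or lymphatic markers passed (limma; 0, 1 and 0 at an unadjusted p below 0.05), and 1 venous marker rose, the ephrin receptor gene Ephb4 (0.34 log2, limma adjusted p = 0.00787). The 10 pan-endothelial markers had a median of 0.07 log2, with 8 above 0. Of these markers, 1 fell, the transcription factor gene Erg (-0.41 log2, limma adjusted p = 0.00516). Of 10 lung epithelium markers, 8 were measured, 6 lay above 0 and 2 rose, Sftpd and Cyp2f2 (each 1.14 log2, limma adjusted p = 0.044 and 0.0428). Cyp2f2 reached 10 CPM only in Tie1-CR, at 8.03 to 15.0 CPM against 1.86 to 6.33 CPM in Tie1-WT. It is thus in the table only through the group where it is high. Sftpd reached 10 CPM in Tie1-WT in replicate 4 alone (10.2 CPM). No conclusion is drawn from these 2 differences. The summed levels of the epithelium markers overlapped, at 297 to 647 CPM in Tie1-WT and 468 to 749 CPM in Tie1-CR. Leaving out libraries in turn, Sftpd passed only without Tie1-WT replicate 4 and Cyp2f2 only without Tie1-CR replicate 2, with adjusted p of up to 0.127 and 0.0806 otherwise (limma). The 3 platelet markers measured had a median of 0.35 log2, and 0 passed (limma; 0 at an unadjusted p below 0.05). The part of these transcripts in the members' values was not tested.

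Per length, the members spanned a wide range of levels. Divided by the length of the principal annotated transcript, the Tie1-WT means were 229 CPM per kb for Tm4sf1, 209 for Gja4 and 171 for Cxcl12. Mgp followed at 70.5 CPM per kb and Stmn2 at 65.2, then Gja5 at 33.8 and Fbln2 at 33.4. The lowest were Fbln5 at 15.5, Cxcr4 at 9.82 and Bmx at 8.02 CPM per kb. The libraries overlapped between Tm4sf1 and Gja4, Gja4 and Cxcl12, Mgp and Stmn2, Gja5 and Fbln2, and Cxcr4 and Bmx, so these neighbours in the order were not separated. In Tie1-CR, Gja4 came above Tm4sf1, at 286 against 247 CPM per kb, again with overlapping libraries. The order depends on the transcript assumed: per kb of all annotated exons, a length chosen after seeing the data, Gja4 (209 CPM per kb in Tie1-WT) came above Tm4sf1 (186). Cxcl12 then stood at 65.4 CPM per kb, Mgp at 36.7, Fbln2 at 25.1, Stmn2 at 24.1 and Gja5 at 18.3.

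**Figure D3:**
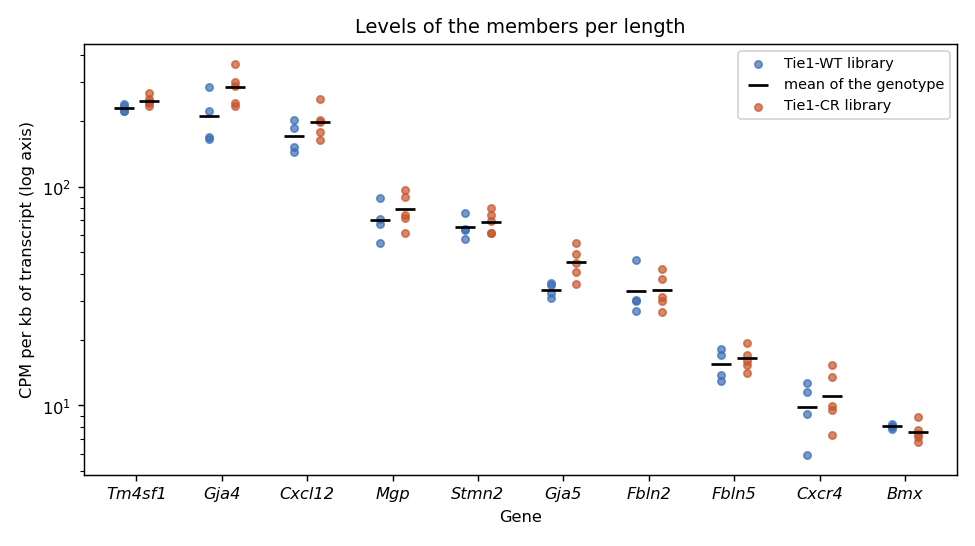
Level of each member in CPM per kb of its principal transcript (log axis), by gene in the order of the Tie1-WT mean. Points are libraries, blue for Tie1-WT (n = 4) and orange for Tie1-CR (n = 5), and dashes are means, which run from 229 CPM per kb for Tm4sf1 to 8.02 for Bmx in Tie1-WT.

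The members varied between libraries of the same genotype more than most genes. For 8 of the 10 the residual SD exceeded that of 80% of all genes, and their median was 0.22 log2 against 0.10 over all genes. The exceptions were Bmx (0.11) and Tm4sf1 (0.07), the steadiest member. This spread is far above counting error for all members but Bmx in Tie1-WT: Gja4, for example, had a coefficient of variation of 26.5% in Tie1-WT against a counting error of at most 0.935%.

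They did not vary as a block. Tie1-CR replicate 4 held the highest value of 5 members (Gja4, Fbln5, Cxcl12, Cxcr4 and Tm4sf1), while its Mgp value was the lowest of the Tie1-CR group. Tie1-WT replicate 3 held the highest Fbln2 value and the lowest values of Gja4, Cxcr4 and Stmn2. In Tie1-WT replicate 4, 8 of 10 members lay above their genotype mean. Over 45 pairs of members, Pearson correlations of values centred within genotype (n = 9 libraries) had a median of 0.16 and ran from -0.51 to 0.78, against a median of 0.02 over all pairs of genes.

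No pair passed after adjustment over the 45, and the values of a few pairs are given as examples. The ligand and receptor genes Cxcl12 and Cxcr4 gave r = 0.71 and rho = 0.63 (exact permutation p = 0.0349 and 0.076; adjusted over 45 pairs 0.473 and 0.551). Leaving out the 2 libraries farthest from the median of Cxcl12, r was 0.68. The highest pair was Gja4 and Stmn2 (r = 0.78, rho = 0.82; exact permutation p = 0.0156 and 0.0108; adjusted 0.473 and 0.467; r = 0.61 without 2 libraries). The fibulin genes gave r = 0.59 and rho = 0.48 (exact permutation p = 0.0961 and 0.194; adjusted 0.648 and 0.897; r = 0.84 without 2 libraries). The connexin genes Gja4 and Gja5 gave r = -0.34 and rho = -0.25 (exact permutation p = 0.376 and 0.521; adjusted 0.699 and 0.897; r = -0.69 without 2 libraries). Of the 45 pairs, 4 had an unadjusted exact permutation p below 0.05. The share of all gene pairs at that level was not computed, so nothing is read from this count.

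**Figure D4:**
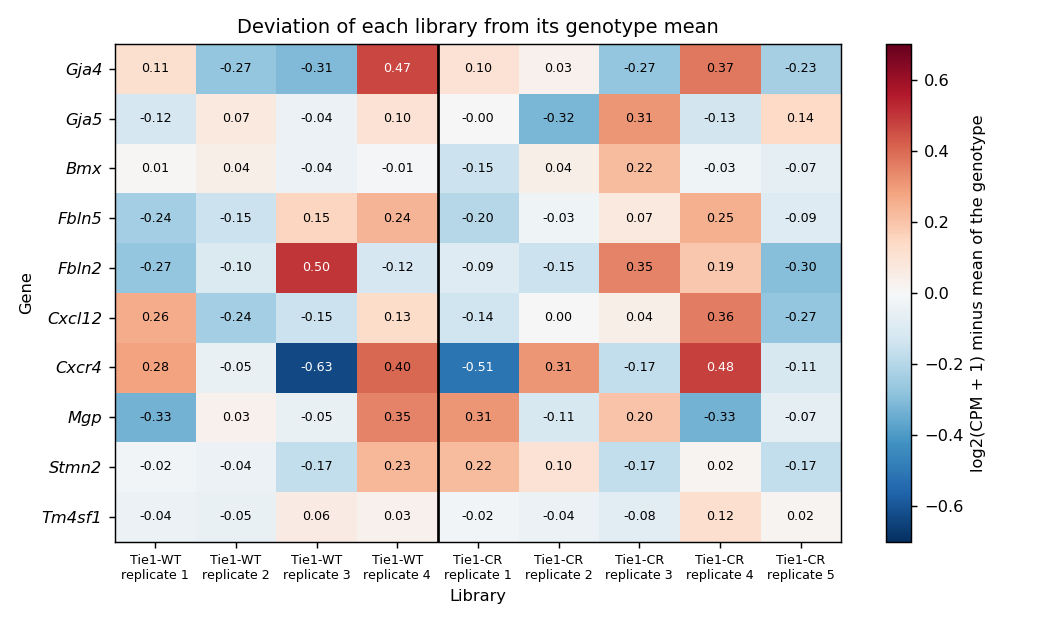
Deviation of each library (columns) from its genotype mean in log2(CPM + 1) for each member (rows), red above and blue below the mean. Cxcr4 spans -0.63 to 0.48 and Tm4sf1 -0.08 to 0.12, and in Tie1-CR replicate 3 Gja4 lies at -0.27 and Gja5 at 0.31.

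The genes most like each member in their centred values reached r of 0.95 to 0.99 over the 9 libraries. This is no closer than usual, since the best match of a gene among the 9276 others had a median r of 0.97. For Gja4 the closest was Hacl1 (r = 0.97), for Gja5 Hsdl1 (0.95), for Cxcl12 Rab31 (0.99) and for Cxcr4 Clec14a (0.98). Fbln2 was closest to the TGF-beta receptor gene Tgfbr2 (0.98) and Mgp to the connexin gene Gjc1 (0.96). Fbln5 was closest to Gm26917 (0.99), Bmx to Trim44 (0.96), Stmn2 to St3gal6 (0.98) and Tm4sf1 to Rqcd1 (0.96).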

How the data were processed

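RNA was isolated with PicoPure and amplified with a SMARTer Ultra Low kit, per the labels' protocols. STAR 2.7 and the builds GRCm38.p6 and mm10 are named in the submitters' processing notes. The deposited table is named as TPM, but the authors' values are CPM: every value is a whole multiple of a step fixed for its library, within 0.01 reads, with no division by gene length. From 98.3% to 98.61% of the counted reads are in the table, and read numbers were inferred from these steps. Differences were tested with limma 3.58.1 (R 4.3.3) on log2(CPM + 1), with trended empirical Bayes, two-sided, genotype only, adjusted by Benjamini-Hochberg over 9277 genes. The filter of 1 CPM in 4 libraries removed 0 genes. Lengths and positions are from GENCODE M21. The method was tested on simulated data with noise drawn independently for each gene. It recovered 85 of 100 planted differences of 0.5 log2 and 99 of 100 of 1 log2. Of its 198 calls, 14 were false. The changed genes were drawn from all genes, whose median residual SD was 0.10 log2 against 0.22 log2 for the members. Recovery at the members' spread was not measured, so these shares do not describe the members. Pairs of members were tested by exact permutation of genotype-centred values, two-sided. Values were permuted across both genotypes and the centring was not allowed for, so these p-values are approximate and can run small.

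The members and lists were chosen with earlier results of these data known. All 10 members are named; of each other list, the genes past the threshold (at most 4 by adjusted p) or else the 2 with the highest mean were eligible. Alternatives varied the pseudocount, filter, scaling, weights, moderation, replicate block, threshold, the libraries included and, added later, voom and the exon length.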

Additional observations from a re-analysis of the deposited data

Results flagged for a closer look

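In 50 groups of libraries (25 genes in each of 2 genotypes), 3 held a library set apart from the rest of its group, where chance gives about 1 in 20. Gja1 measured 31.6 CPM in Tie1-WT replicate 4, against 21.6 to 23.2 CPM in the other Tie1-WT libraries. Gnai2 measured 1561 CPM in Tie1-CR replicate 1, against 1255 to 1338 CPM in the rest of Tie1-CR. Stmn1 measured 16.5 CPM in Tie1-CR replicate 1, against 11.9 to 12.5 CPM. None of the 10 members was among them.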

How the results depend on the processing

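No member passed in the main analysis; 1 rose with library weights (Gja5, limma adjusted p = 0.0183), 1 with the replicate block (Gja4, 0.52 log2, limma adjusted p = 0.0208) and 1 at a threshold of 0.10 (Gja5). The replicate block rests on numbers that are not stated to pair the libraries. Tie1-CR replicate 5 is alone in its block and does not enter the genotype difference of that fit. No conclusion is drawn from what the block gained or lost. Leaving out each library in turn gave 0 to 1 members higher. Of the 58 other genes in the pathway lists, 3 rose in the main analysis, 5 with TMM scaling, 7 with library weights, 1 with the replicate block and, at a threshold of 0.10, 11 rose and 1 fell. Leaving out each library gave 0 to 4.

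Over all genes 119 were higher and 257 lower in the main analysis, 182 and 194 with TMM scaling, and 183 and 190 with quantile normalization. Library weights gave 245 and 416, the replicate block 38 and 145, and a threshold of 0.10 gave 314 and 592. Leaving out each library gave 6 to 110 higher and 54 to 245 lower, with the fewest without Tie1-WT replicate 1.

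Directions turned for Ltbp4 (0.02 with TMM scaling, 0.06 with the replicate block) and Gnai2 (0.01 with TMM scaling and with quantile normalization). Leaving out each library moved Fbln2 from -0.07 to 0.19, Cxcr4 from -0.03 to 0.31, Ltbp4 from -0.07 to 0.06 and Gnai2 from -0.07 to 0.01. The cause was not tested. Cxcr4 was not tested with a mean of at least 20 CPM.

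Same-numbered libraries of the genotypes had deviations that correlated at -0.144, 0.00411, -0.0597 and 0.19, and replicate 4 alone correlated best with its own number. The labels state no pairing, and these correlations are too few to decide whether the numbers pair the libraries. The planned tests on counts with edgeR and DESeq2 were not run. A count-based fit added after seeing the data, limma's voom on the inferred reads, called 0 members, with 113 genes higher and 262 lower.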
